A study of Mus musculus with 8 samples.

Results

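Cell cycle and mitosis genes of the mouse kidney were compared between control and cisplatin-treated animals. The members were chosen by name and not by their values. They are the protein-coding genes of the count table whose symbols mark them as cyclins A, B, D or E, cyclin-dependent kinases (Cdk), numbered Cdc, Mcm and Kif genes, E2F factors, centromere proteins (Cenp), Aurora kinases, Bub genes, origin recognition (Orc) and Gins subunits, or as Plk1, Plk4, Mki67, Top2a, Ndc80 or Nuf2. The pattern found 102 genes among 12286 protein-coding genes and 35880 rows that held 1 count for each of the 8 libraries. By role, 10 act in G1, 18 in DNA replication and 39 in mitosis, and 35 match the pattern but were placed in other roles, such as kinesins that carry cargo. The last group is not free of cell cycle genes, since Cdk7, the partner of Ccnh in the Cdk-activating kinase, is in it. A further 68 genes of the same pattern, out of 170 in all rows, stood in rows with 10 counts and were not analysed here. They include Mki67, Top2a, Ccna2, Ccnd1, E2f1, Mcm4, Mcm6, Cdc20, Bub1 and Plk4, so that several of the genes most often used to mark dividing cells are missing from what follows.

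Bulk RNA sequencing was performed on whole kidneys of wild-type mice, described in the methods as male C57/BL6J animals. The 4 control mice received saline (0 mg/kg cisplatin), and the 4 treated mice received 1 intraperitoneal injection of cisplatin, a platinum drug that crosslinks DNA, at 23 mg/kg. All kidneys were taken 72 h after injection. The age of the mice and any pooling were not given in the sources used here, and the labels number the libraries control 1, 2, 3 and 5 and cisplatin 1, 3, 4 and 6 and give the same preparation for all of them.

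A cell enters the cycle when cyclin D and cyclin E kinases free the E2F factors, which switch on the genes for DNA synthesis. Origins are then licensed by the origin recognition complex, Cdc6 and the Mcm helicase and fired by Cdc7 and cyclin kinases, and later Cdk1 with B-type cyclins drives the cell into mitosis, where kinetochores, kinesins and the Aurora kinases move the chromosomes. The adult kidney is known as a largely quiescent organ whose surviving tubule cells can re-enter the cycle after injury, while DNA damage acting through p53 and the inhibitor Cdkn1a can hold cells in G1 or G2.

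The total count per library in the rows used ranged from 10953338 to 16701599. Levels are given as CPM, counts scaled to library size with TMM normalization, and 3 counts, taken as the smallest measurable level, corresponded to 0.136 to 0.266 CPM, a floor that covers counting error only. Many members lay close to that floor, which limits their precision. The libraries differed by more than the treatment. On the first principal component, with 73.55% of the variance, treated and control kidneys separated. On the second, with 15.96%, control 5, cisplatin 4 and cisplatin 6 stood apart from the other 5 libraries. Kdm5d and Eif2s3y, which lie on the Y chromosome, were counted 2 and 3 times in cisplatin 1 and 0 times in cisplatin 3, against 274 or more in each of the other 6 libraries, which goes against the stated sex of the animals for these libraries. Counts are therefore also given without cisplatin 1 and 3, and for control 1, 2 and 3 against cisplatin 1 and 3 alone. In the latter fit every control held the Y-linked counts and the treated libraries lacked nearly all of them. Treatment and this difference therefore cannot be told apart in that fit. The replicates are separate mice by the methods. Proximal tubule markers were abundant in all controls, as the tissue label requires, with a summed level of 22634 to 32501 CPM over 10 genes.

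With all 8 libraries, a larger share of the replication and mitotic genes than of all genes was called higher after cisplatin, and the G1 share was close to that of all genes. For the mitotic genes this did not hold in the fit without cisplatin 4, cisplatin 6 and control 5 (13.9%, where 17.6% of all genes rose). Nor did it hold in the fit that pairs libraries by number (11.1%, where 18.7% rose). That fit rests on control 1 and 3 and cisplatin 1 and 3, which are all in the former fit. It is therefore no separate check and has the same limit from the Y-linked counts. In a test for changes larger than 1 on the log2 scale, 2 of 36 mitotic genes rose, again a smaller share than 885 of all 9141 genes. In each of these fits the share of all members that rose was also below that of all genes. The differences between these shares were not tested. Of 97 members that passed the filter on low counts, 27 rose and 4 fell. A gene was called when its log2 fold change was 1 or more in size and its p in the quasi-likelihood test of edgeR, adjusted over all 9141 genes tested by the Benjamini-Hochberg method, was under 0.05. Those are 27.8% and 4.12% of the members, where 19.2% of all genes tested rose and 15.7% fell. The replication genes gave 8 up and 0 down of 18, the mitotic genes 12 up and 1 down of 36 tested, the G1 genes 2 up and 0 down of 10, and the genes of other roles 5 up and 3 down of 33. The median log2 fold change was 0.90 for replication, 0.86 for mitosis, 0.30 for G1 and -0.13 for the other roles, beside 0.08 for all genes. In 31 members every cisplatin library lay above every control and in 11 every one lay below, where 23.7% and 22.5% of all genes did so. The 5 members that could not be tested, Aurkc, Ccnb3, Cdc20b, Kif28 and Kif2b, had 0 counts or close to 0 in every library.

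**Figure D1:**
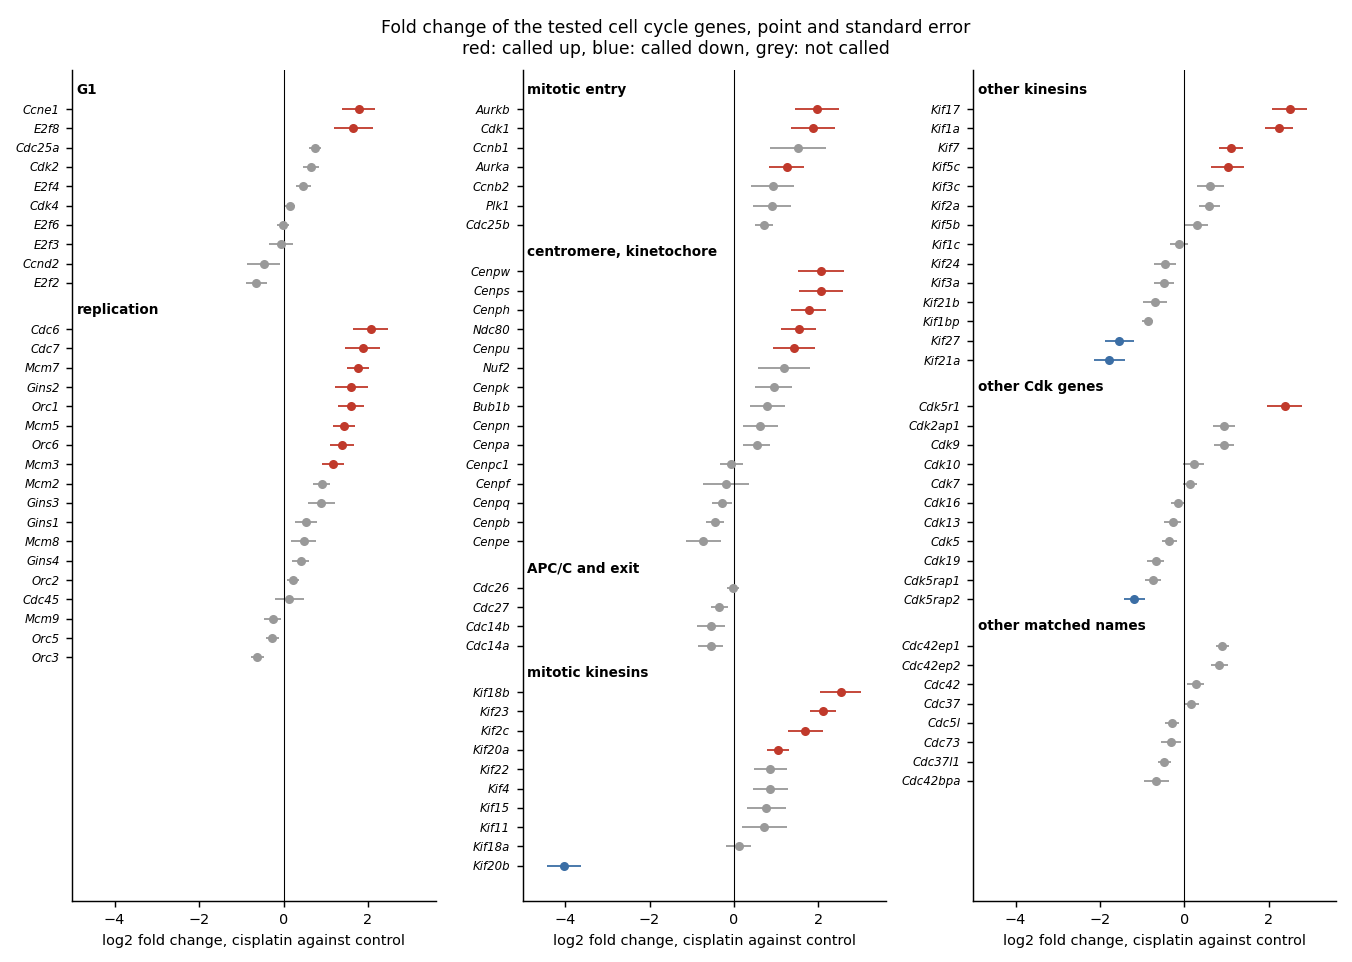
Log2 fold change of cisplatin against control (x axis) with its standard error for the 97 tested members (y axis), grouped by role, with 27 called up in red, 4 called down in blue and 66 not called in grey. The replication and mitotic genes sit mostly to the right of 0, with Kif20b alone at -4.03, while the genes of other roles lie on both sides.

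The scale matters for these counts. TMM factors ran from 0.785 to 0.853 in the controls and from 1.15 to 1.32 after cisplatin, and scaling by the total count alone moved the median of all genes by 0.57 on the log2 scale. It raised the calls to 52 up and 2 down among the members, or 96.3% upward of those called against 87.1% with TMM, and the upward share among all called genes went from 55.0% to 79.8%. Relative to the median of all genes the replication genes were 0.82 higher with either scaling and the mitotic genes 0.78 with TMM and 0.77 with the total count, and all 27 upward calls held.

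The libraries shared in this unequally. As the median over genes of log2(CPM + 1) minus the mean of the controls, the replication genes stood at 0.63 in cisplatin 1, 0.40 in cisplatin 3, 0.92 in cisplatin 4 and 1.02 in cisplatin 6, against -0.02 to 0.03 in the 4 controls. The mitotic genes stood at 0.31, 0.47, 0.41 and 1.28 in the same order and at 0.21, -0.06, 0.20 and -0.30 in control 1, 2, 3 and 5. Thus the replication median was above the controls in all 4 treated kidneys, although 3 of its 18 genes had negative changes, whereas the controls themselves differed in the mitotic median and cisplatin 6 carried the highest level of the 8 libraries in 22 of 36, where it did so in 16.4% of all genes. In control 1, 2 and 3 against cisplatin 1 and 3 alone, a fit with fewer libraries, 5 replication genes (27.8%), 5 mitotic genes (13.9%) and 2 G1 genes rose, with 17.6% of all genes, so that the mitotic share lay below that of all genes. Without cisplatin 1 and 3 these counts were 10 (55.6%), 15 (41.7%) and 2, with 21.4% of all genes. The G1 count was 2 of 10 in both and with all libraries.

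**Figure D2:**
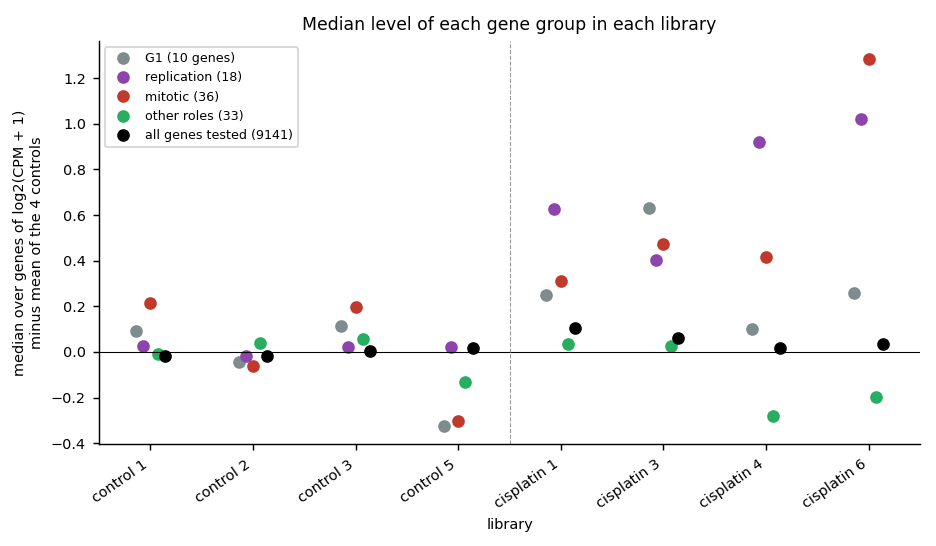
Median over genes of log2(CPM + 1) minus the mean of the 4 controls (y axis) in each of the 8 libraries (x axis), one point per gene group. Replication genes lie at 0.40 to 1.02 in the cisplatin libraries and near 0 in every control, and the mitotic median is 1.28 in cisplatin 6 and at most 0.47 in the other 3 cisplatin libraries.

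The promoters of 7 members are shown before the genes are described, because they hold the elements that mitotic and replication genes are known for. Windows of 300 bases around the start of transcription (250 before and 50 after) were taken from RefSeq, build GRCm38.p6, and were found for 88 of the 102 members, 12 of them with more than 1 window. The cell cycle homology region, an element of mitotic promoters, was searched as TTTGAA or TTCGAA, the CCAAT box as CCAAT, and the E2F site as TTTCCCGC, TTTGGCGC or TTTCGCGC, each on both strands, and E2F matches of opposite strands can overlap. Each stretch below has 210 bases, 180 before the start and 30 transcribed, read 5′ to 3′ on the strand of the gene, with the matches in capitals. The stretches are chr10:69352883-69353092 (minus strand) for Cdk1, chr9:61946770-61946979 (minus) for Kif23, chr11:102925095-102925304 (minus) for Kif18b, chr19:34922178-34922387 (plus) for Kif20b, chr8:75109329-75109538 (plus) for Mcm5, chr5:138171854-138172063 (minus) for Mcm7 and chr4:108579274-108579483 (plus) for Orc1. Cdk1, Kif23 and Kif18b are mitotic genes that rose, Kif20b is the mitotic gene that fell, and Mcm5, Mcm7 and Orc1 are replication genes that rose.
Cdk1: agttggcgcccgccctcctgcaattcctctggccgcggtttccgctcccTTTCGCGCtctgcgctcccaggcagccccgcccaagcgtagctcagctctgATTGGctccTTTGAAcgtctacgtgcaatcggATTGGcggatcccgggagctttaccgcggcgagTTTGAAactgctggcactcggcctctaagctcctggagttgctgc
Kif23: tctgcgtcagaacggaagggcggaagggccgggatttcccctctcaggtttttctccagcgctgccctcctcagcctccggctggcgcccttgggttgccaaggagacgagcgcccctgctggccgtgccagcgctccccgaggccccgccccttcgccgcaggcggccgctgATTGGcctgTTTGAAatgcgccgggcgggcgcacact
Kif18b: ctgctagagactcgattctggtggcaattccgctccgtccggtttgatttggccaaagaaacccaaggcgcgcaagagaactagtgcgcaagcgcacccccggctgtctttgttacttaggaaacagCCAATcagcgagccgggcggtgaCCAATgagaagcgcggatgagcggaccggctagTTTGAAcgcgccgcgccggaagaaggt
Kif20b: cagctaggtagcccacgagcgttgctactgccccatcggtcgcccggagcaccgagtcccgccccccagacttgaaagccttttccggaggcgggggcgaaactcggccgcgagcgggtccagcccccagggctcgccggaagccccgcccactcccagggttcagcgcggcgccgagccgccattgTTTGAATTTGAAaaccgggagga
Mcm5: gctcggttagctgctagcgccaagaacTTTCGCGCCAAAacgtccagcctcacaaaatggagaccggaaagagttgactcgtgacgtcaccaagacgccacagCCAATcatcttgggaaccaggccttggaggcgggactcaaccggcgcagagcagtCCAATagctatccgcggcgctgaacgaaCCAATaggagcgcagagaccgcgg
Mcm7: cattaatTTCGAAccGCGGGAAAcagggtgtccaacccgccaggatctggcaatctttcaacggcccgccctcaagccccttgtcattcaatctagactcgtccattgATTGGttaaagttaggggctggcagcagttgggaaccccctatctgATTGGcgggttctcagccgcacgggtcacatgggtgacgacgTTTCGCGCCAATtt
Orc1: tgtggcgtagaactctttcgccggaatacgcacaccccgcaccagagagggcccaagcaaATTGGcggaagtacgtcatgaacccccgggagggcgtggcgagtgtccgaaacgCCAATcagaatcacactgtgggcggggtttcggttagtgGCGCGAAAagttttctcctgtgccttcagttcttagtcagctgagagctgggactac
Of the 12 mitotic genes that rose, the 3 shown each hold TTTGAA and at least 1 CCAAT box, and Cdk1 also holds an E2F match. Kif20b holds TTTGAA at 2 places next to each other and no CCAAT box, which was also missing from the windows of Cenps, Ndc80 and Kif2c, mitotic genes that rose. The 3 replication genes each hold an E2F match and CCAAT boxes, and Mcm7 also holds TTCGAA.

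Across the windows, the cell cycle homology region matched in 21 of 42 mitotic windows, 6 of 18 replication windows, 3 of 10 G1 windows and 8 of 32 windows of other roles, beside 19.2% of all 32851 windows. The E2F letters matched in 44.4% of the replication windows, 4 of the 10 G1 windows, 11.9% of the mitotic windows and 0 of the windows of other roles, beside 1.84% of all. The CCAAT box was in 72.2% of replication, 66.7% of mitotic, 6 of 10 G1 and 37.5% of other windows, beside 37.4% of all. Among mitotic genes the homology region was found in 7 of 10 windows of genes that rose and 13 of 28 windows of those that were not called, the CCAAT box in 70.0% and 71.4%, and among replication genes the E2F letters were in 5 of 9 and 3 of 9. These are matches of letters, with no measurement of binding, and the differences between called and uncalled genes were not tested.

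**Figure D3:**
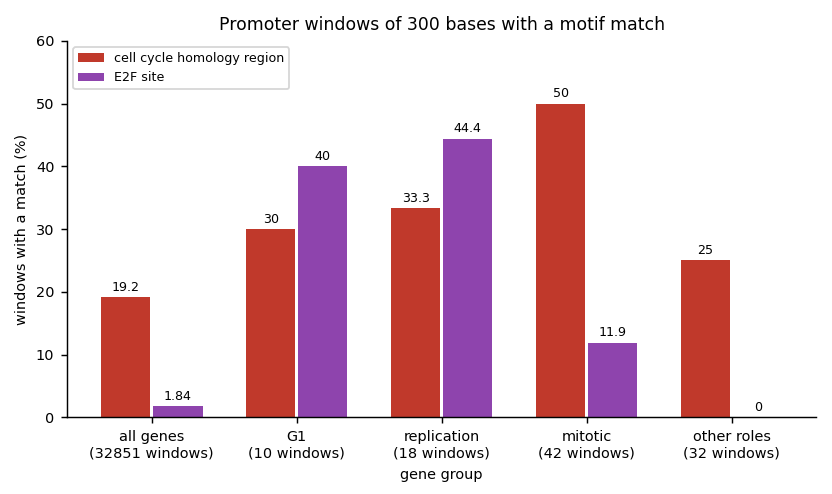
Share of promoter windows in percent (y axis) with a match to the cell cycle homology region (red) or to an E2F site (purple) for all genes and for each role (x axis). Mitotic windows hold the homology region most often, in 21 of 42, and replication windows the E2F site, in 8 of 18, against 19.2% and 1.84% of all windows.

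In G1, Ccne1 and E2f8 rose and the other 8 genes were not called. Ccnd2 was the only D-type cyclin with values here. Ccne1, the cyclin that activates Cdk2 at the G1/S boundary, was at 1.86, 0.638, 1.52 and 0.629 CPM in control 1, 2, 3 and 5 and at 3.41, 3.96, 4.76 and 3.89 CPM in cisplatin 1, 3, 4 and 6. The groups did not overlap, and the log2 fold change was 1.78 ± 0.40 (SE, n = 4 per group, adjusted p = 0.00458). E2f8, an atypical E2F that represses E2F targets, went from 1.33, 0.718, 1.06 and 0.315 CPM to 1.77, 2.69, 2.05 and 4.36 CPM, again without overlap, a log2 change of 1.66 ± 0.47 (adjusted p = 0.0152). E2f8 kept its call in 19 of 21 alternative fits, with a log2 change as low as 0.89, and was not called in the fit that pairs libraries by number. It shares 11.2% of its exon bases with Gm2788, and since no source gives the strand rule used for counting, such shared stretches are uncertain for every gene where they are given.

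The kinase of cyclin E and its activating phosphatase moved by less than the fold threshold with TMM as the scale. Cdk2 was at 37.8, 36.2, 37.4 and 25.6 CPM in the controls and 45.2, 64.4, 55.0 and 50.3 CPM after cisplatin, a log2 change of 0.65 ± 0.18 (adjusted p = 0.0139). Cdc25a, which removes the inhibitory phosphate from Cdk2, was at 16.5, 21.5, 20.4 and 18.9 CPM against 34.2, 32.0, 32.3 and 31.5 CPM, a log2 change of 0.75 ± 0.15 (adjusted p = 0.00258). For both genes all treated kidneys lay above all controls, and with the total count as the scale Cdk2 (1.21) and Cdc25a (1.31) were called up. Cdk4, the partner of D-type cyclins, was at 98.4 to 125 CPM in the controls and 109 to 130 CPM after cisplatin (log2 change 0.14 ± 0.14, adjusted p = 0.414), with 19.7% of its exon bases shared with Tspan31. Ccnd2, a D-type cyclin, was at 40.9, 35.4, 33.3 and 19.5 CPM in the controls, and at 33.2 and 32.7 CPM in cisplatin 1 and 3 but 9.44 and 17.5 CPM in cisplatin 4 and 6. Its log2 change was -0.47 ± 0.39 (adjusted p = 0.339), which turned positive with the total count as the scale (0.12), and without cisplatin 1 and 3 it was called down (-1.26).

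The E2F factors other than E2f8 were not called with TMM as the scale. E2f4, a mostly repressive E2F of resting cells, was at 70.4 to 101 CPM in the controls and 96.3 to 150 CPM after cisplatin (log2 change 0.46 ± 0.18, adjusted p = 0.0552). With the total count as the scale E2f4 was called up (1.03). E2f3, an activator, had a log2 change of -0.06 ± 0.29 and overlapping groups, and its sign turned with several settings. E2f2, also an activator, was lower in all 4 treated kidneys, at 6.6 to 11.2 CPM against 4.76 to 6.59 CPM, with an adjusted p of 0.0608 and a log2 change of -0.64 ± 0.25.

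Of the replication genes, 8 of 18 rose (44.4%, where 19.2% of all genes did), and the loading factor Cdc6 and the kinase Cdc7 had the largest changes. Cdc6, which loads the Mcm ring on origins, was at 0.974, 0.638, 1.52 and 1.18 CPM in the controls and 2.32, 4.29, 4.69 and 6.98 CPM after cisplatin, a log2 change of 2.06 ± 0.41 (adjusted p = 0.0026). Cdc7, the kinase that fires the loaded helicase, was at 1.95, 2.39, 0.683 and 1.1 CPM against 6.91, 6.76, 4.17 and 4.52 CPM, a change of 1.87 ± 0.41 (adjusted p = 0.00418). Neither gene overlapped between the groups, and cisplatin 6 was the highest library for Cdc6 while cisplatin 1 and 3 were the highest for Cdc7.

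Mcm7, Mcm5 and Mcm3, subunits of the helicase that unwinds DNA at the fork, were called up with all libraries. Mcm7 was at 36.4, 38.2, 35.3 and 40.3 CPM in the controls and at 92.2, 77.4, 162 and 178 CPM after cisplatin, a log2 change of 1.76 ± 0.27 (adjusted p = 0.000526). Mcm5 was at 12.2, 8.14, 13.8 and 11.2 CPM against 24.6, 21.3, 37.0 and 40.6 CPM, a change of 1.44 ± 0.26 (adjusted p = 0.00148). Both were separated from the controls in every treated kidney, with cisplatin 4 and 6 above cisplatin 1 and 3. Mcm3 was at 10.9, 9.09, 13.1 and 9.04 CPM against 18.6, 17.1, 25.9 and 33.5 CPM (change 1.17 ± 0.25, adjusted p = 0.00394). Mcm2 was at 27.6, 20.3, 28.1 and 27.4 CPM against 38.3, 37.6, 59.6 and 57.7 CPM, where the change of 0.90 ± 0.21 missed the fold threshold (adjusted p = 0.00576). In control 1, 2 and 3 against cisplatin 1 and 3 alone, Mcm7 was still called (1.15), but Mcm5 (0.95) and Mcm3 (0.64) were not. The same order of the treated libraries, cisplatin 4 and 6 both above cisplatin 1 and 3, was seen in 11 of 18 replication genes (61.1%), in 38.9% of mitotic genes, in 0 of 10 G1 genes and in 36.7% of all genes.

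Among the origin and fork subunits the calls were divided. Orc1, the largest subunit of the origin recognition complex, was at 1.24, 0.877, 0.607 and 0.708 CPM against 2.32, 2.75, 2.86 and 2.46 CPM (change 1.59 ± 0.31, adjusted p = 0.00239, 10.8% of exon bases shared with Gm12743). Orc6 of the same complex was at 14.4, 15.3, 13.1 and 13.5 CPM against 32.3, 18.9, 49.6 and 46.6 CPM (change 1.39 ± 0.28, adjusted p = 0.00293). Orc1 was even across the treated kidneys and Orc6 was not, with cisplatin 3 close to the controls and no call in control 1, 2 and 3 against cisplatin 1 and 3 alone (0.78). The stable core of that complex behaved otherwise. Orc3 was at 75.9, 84.1, 85.4 and 64.6 CPM against 57.3, 50.1, 50.3 and 44.4 CPM, lower in all 4 treated kidneys (change -0.62 ± 0.15, adjusted p = 0.0068). Orc2 and Orc5 had adjusted p of 0.237 and 0.184, and Orc2 shares 29.8% of its exon bases with Nif3l1, so its count is uncertain. Subunits of 1 complex therefore did not move together with TMM as the scale, and with the total count as the scale Orc3 had a log2 change of -0.05.

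Gins2, a subunit of the helicase activator GINS, was called up at 1.61 ± 0.40 (adjusted p = 0.00768), from 2.21, 2.55, 1.67 and 4.40 CPM to 5.55, 5.55, 11.3 and 10.9 CPM, but 67.3% of its exon bases are shared with Gse1, so its count is uncertain. Gins3 missed the fold threshold (0.90 ± 0.31, adjusted p = 0.0378), and Gins1 and Gins4 had adjusted p of 0.115 and 0.111. Cdc45, the helicase cofactor that GINS joins at the fork, was at 4.96, 2.71, 4.70 and 4.40 CPM against 3.18, 3.63, 4.54 and 7.22 CPM, with overlapping groups (0.14 ± 0.34, adjusted p = 0.757).

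**Figure D4:**
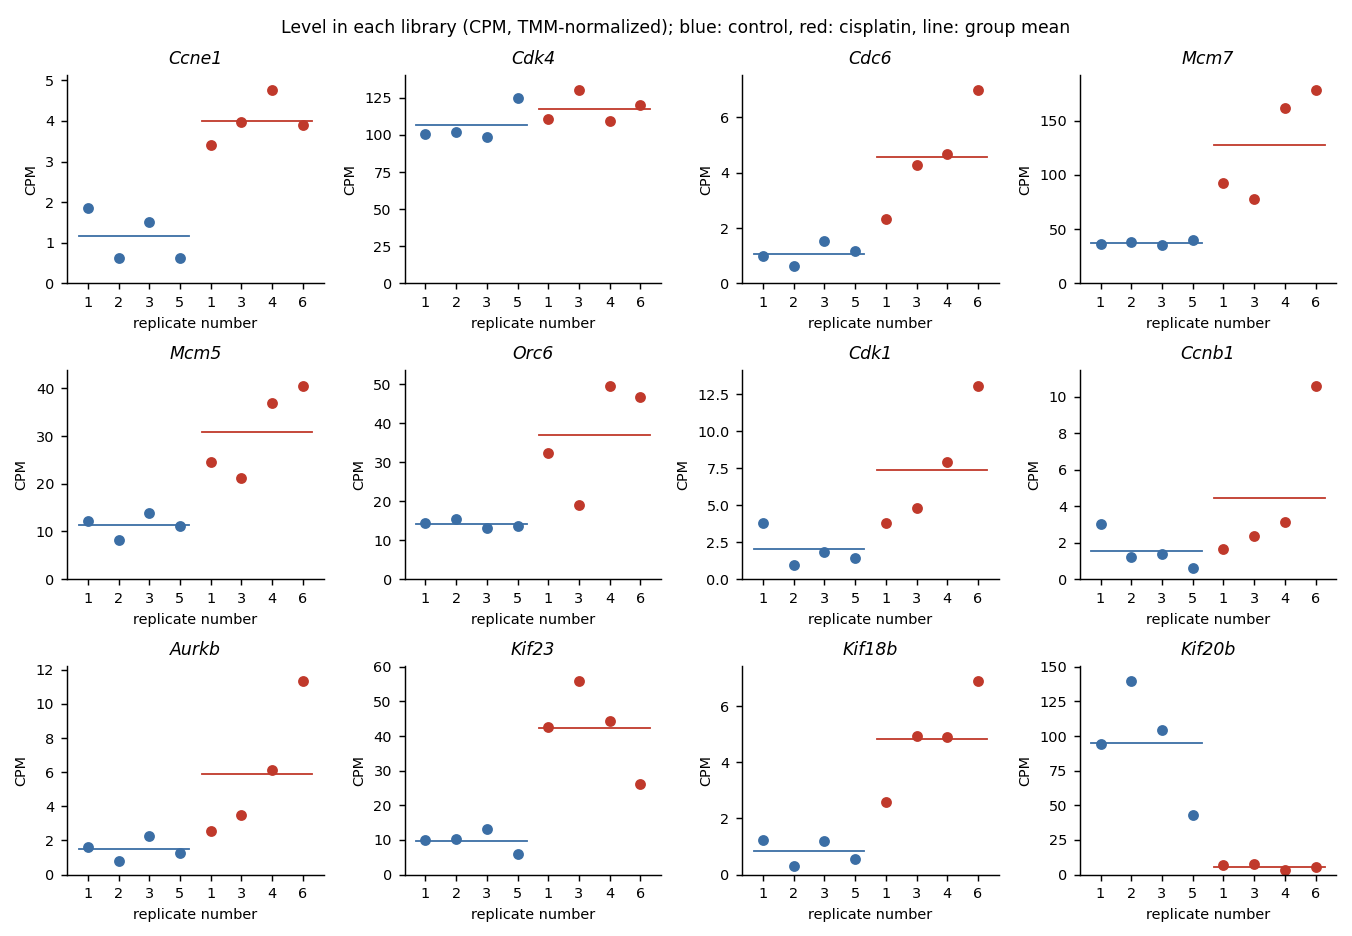
Level in CPM (y axis, from 0, a scale of its own for each gene) in each control (blue) and cisplatin (red) library, named by replicate number (x axis), for 12 genes, with a line at each group mean. Mcm7, Mcm5 and Orc6 are highest in cisplatin 4 and 6, Ccnb1 is at 10.6 in cisplatin 6 and 1.64 to 3.15 in the other 3 cisplatin libraries, and Kif20b is at most 7.53 after cisplatin against at least 43.1 in the controls.

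Of 7 tested genes of mitotic entry, 3 rose (42.9%, where 19.2% of all genes did) and 0 fell, and the B-type cyclins were not among those that rose. With the total count as the scale all 7 were called up, Ccnb1 and Ccnb2 among them, where 3174 of 9141 genes were. Cdk1, the mitotic kinase, was at 3.81, 0.957, 1.82 and 1.42 CPM in the controls and 3.78, 4.78, 7.91 and 13.1 CPM after cisplatin, a log2 change of 1.88 ± 0.52 (adjusted p = 0.0138). Aurkb, the kinase of the chromosomal passenger complex, was at 1.59, 0.798, 2.28 and 1.26 CPM against 2.55, 3.46, 6.15 and 11.3 CPM, a change of 1.97 ± 0.52 (adjusted p = 0.0112). Aurka, the centrosome and spindle pole kinase, was at 3.37, 1.75, 3.49 and 1.1 CPM against 4.37, 4.45, 5.78 and 8.64 CPM, a change of 1.25 ± 0.41 (adjusted p = 0.03). All 3 were highest in cisplatin 6, and Cdk1 overlapped, since control 1 lay just above cisplatin 1. None of the 3 was called in control 1, 2 and 3 against cisplatin 1 and 3 alone, where their log2 changes were 0.92 for Cdk1, 0.89 for Aurkb and 0.56 for Aurka.

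Ccnb1, the cyclin B of Cdk1, was at 3.01, 1.20, 1.37 and 0.629 CPM in the controls and at 1.64, 2.36, 3.15 and 10.6 CPM after cisplatin. With 1 kidney far above the rest, its log2 change of 1.51 ± 0.66 did not pass (adjusted p = 0.0861), and it was 0.62 without cisplatin 6. Ccnb1 stayed uncalled in 16 of 21 alternative fits, and with the total count as the scale it was called up (2.02). Ccnb2 (0.91 ± 0.50, adjusted p = 0.159) and Plk1, the polo-like kinase of mitotic entry (0.91 ± 0.45, adjusted p = 0.122), overlapped between the groups in the same way, with cisplatin 6 at 10.9 and 8.41 CPM. Cdc25b, the phosphatase that first activates Cdk1, was at 15.9 to 19.8 CPM in the controls and at 32.4, 32.7, 19.2 and 32.7 CPM after cisplatin, so that cisplatin 4 alone stayed at the control level (0.71 ± 0.21, adjusted p = 0.0171).

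At the centromere and kinetochore, 5 of 15 genes rose (33.3%, where 19.2% of all genes did) and 0 fell. Cenpw, Cenps, Cenph and Cenpu, which belong to the inner centromere network, had log2 changes of 2.06 ± 0.55, 2.06 ± 0.52, 1.77 ± 0.42 and 1.43 ± 0.49 (adjusted p = 0.0111, 0.00876, 0.00637 and 0.0358). Their control means were 0.560, 0.768, 0.765 and 0.843 CPM, within a few counts of the floor, and Cenpu shares 26.7% of its exon bases with Primpol. Ndc80, which attaches microtubules at the outer kinetochore, was at 1.15, 0.718, 1.21 and 0.472 CPM against 1.68, 1.98, 2.64 and 4.12 CPM, with no overlap (1.53 ± 0.42, adjusted p = 0.0133). In control 1, 2 and 3 against cisplatin 1 and 3 alone, Cenpw (1.06), Ndc80 (0.77) and Cenpu (0.52) were not called, and Cenpu kept its call in 10 of 21 alternative fits. In the fit that pairs libraries by number, Cenpw, Cenps, Ndc80 and Cenpu were not called, and of the 5 only Cenph was.

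Nuf2, the partner of Ndc80, did not pass (1.19 ± 0.61, adjusted p = 0.135), nor did Bub1b, the checkpoint kinase-like protein BubR1 (0.79 ± 0.41, adjusted p = 0.137). Cenpa, the histone H3 variant that marks the centromere, was at 4.01 to 5.84 CPM in the controls and 5.09, 5.72, 7.47 and 12.2 CPM after cisplatin (0.54 ± 0.32, adjusted p = 0.188). The most abundant gene of this role, Cenpb, which binds centromeric satellite DNA, was at 340 to 641 CPM against 295 to 352 CPM (-0.45 ± 0.21, adjusted p = 0.106). Cenpe and Cenpf, large proteins of the late kinetochore, had changes of -0.72 ± 0.42 and -0.19 ± 0.55 and did not pass either.

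None of the 4 tested genes of the anaphase-promoting complex and mitotic exit was called, where edgeR at an unadjusted p under 0.05 called 0 as well. Cdc27 and Cdc26, subunits of that ubiquitin ligase, were at 52.4 to 73.8 and 35.9 to 44.1 CPM in the controls and at 38.9 to 63.8 and 33.2 to 43.5 CPM after cisplatin. The phosphatases Cdc14a and Cdc14b had log2 changes of -0.55 ± 0.30 and -0.53 ± 0.33. The 4 values were negative with TMM and all positive with the total count as the scale, so no direction is given for them. In all 4, cisplatin 4 and 6 lay below cisplatin 1 and 3, where they did so in 36.2% of all genes, and without cisplatin 1 and 3 Cdc14b was called down (-1.30).

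Among the mitotic kinesins, 4 of 10 rose (40.0%, where 19.2% of all genes did) and 1, Kif20b, fell, where 15.7% of all genes did. Kif23, the motor of the central spindle that is needed for cytokinesis, was at 9.92, 10.3, 13.1 and 5.82 CPM in the controls and 42.7, 55.9, 44.3 and 26.2 CPM after cisplatin, a log2 change of 2.11 ± 0.30 (adjusted p = 0.000353). Unlike the genes of mitotic entry, it was lowest in cisplatin 6 among the treated kidneys, and its log2 change was 2.09 in control 1, 2 and 3 against cisplatin 1 and 3 alone. Kif18b, a motor that shortens astral microtubules, was at 1.24, 0.319, 1.21 and 0.550 CPM against 2.59, 4.95, 4.90 and 6.90 CPM (2.53 ± 0.48, adjusted p = 0.00192). Kif2c, the centromeric microtubule depolymerase MCAK, rose by 1.69 ± 0.41 (adjusted p = 0.00739) and Kif20a, a motor of the central spindle, by 1.05 ± 0.26 (adjusted p = 0.00797), with 29.3% of the exon bases of Kif20a shared with Cdc23. Kif20a kept its call in 16 of 22 alternative fits. It was not called in control 1, 2 and 3 against cisplatin 1 and 3 alone or in the fit that pairs libraries by number. Kif11, the motor that separates the spindle poles, did not pass, at 4.78, 3.27, 4.93 and 0.865 CPM against 3.59, 4.62, 4.1 and 10.5 CPM (0.72 ± 0.53, adjusted p = 0.292).

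Kif20b, a kinesin of cytokinesis, went the other way. It was at 94.0, 140, 105 and 43.1 CPM in control 1, 2, 3 and 5 and at 6.87, 7.53, 3.0 and 5.79 CPM in cisplatin 1, 3, 4 and 6, which is 16.4-fold lower on the group means. The lowest control was far above the highest treated kidney, and the log2 change of -4.03 ± 0.41 (adjusted p = 5.06e-05) was called down in each of the 22 alternative fits, between -4.44 and -3.46. The gene lies at chr19:34922361-34975745 on the plus strand and shares no exon bases with another annotated gene. Per kilobase of its length in the deposited table, Kif20b was in the controls at rank 4 of the 67 G1, replication and mitotic genes, at 13.7 ± 5.74 CPM per kb (SD, n = 4), a spread that holds the means of Gins4, Orc3, Cdc27 and Mcm7 at ranks 5 to 8, and after cisplatin it stood at rank 52 with 0.83 ± 0.29. No other mitotic kinesin was above 1.24 CPM per kb in the controls, the level of Kif23, which reached 5.35 ± 1.55 after cisplatin.

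**Figure D5:**
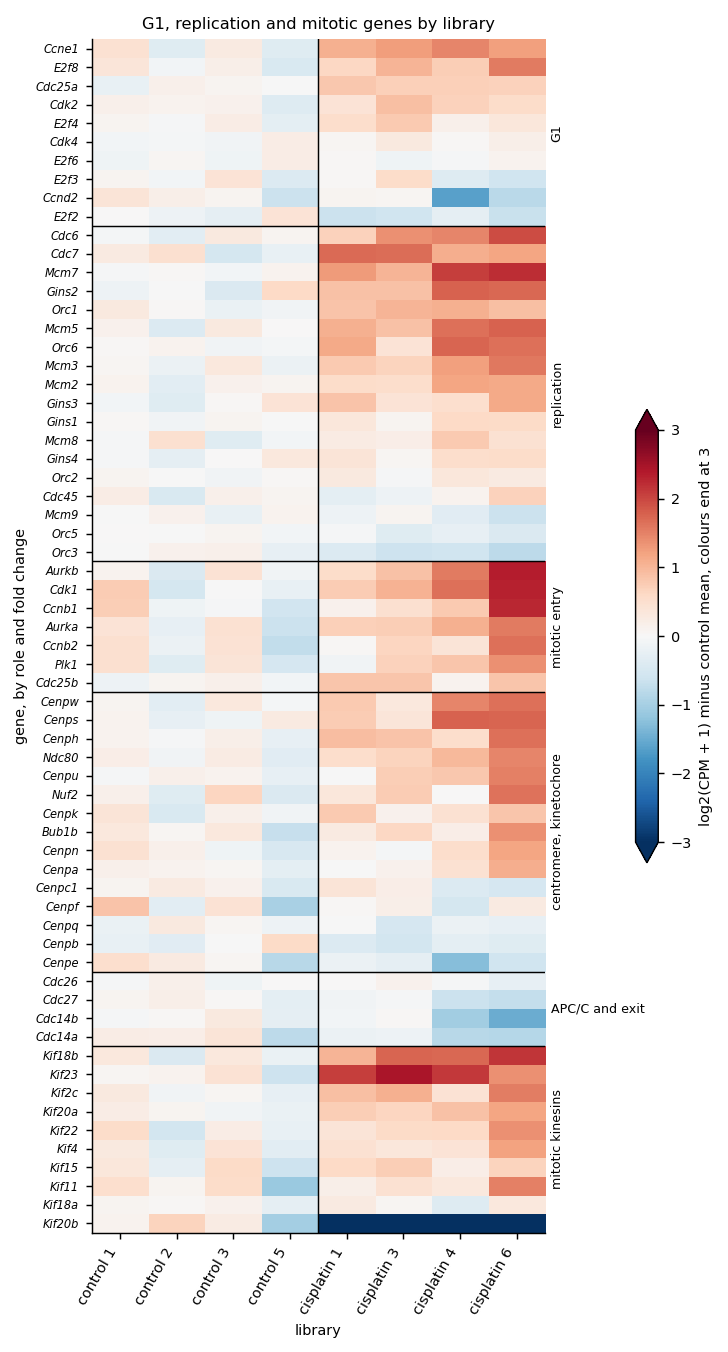
Each of the 64 tested G1, replication and mitotic genes (y axis, by role and fold change) in each library (x axis), as log2(CPM + 1) minus the mean of the 4 controls, red above and blue below, with colours ending at 3. Cisplatin 6 is the reddest column of the mitotic entry and kinetochore blocks, control 5 is mostly blue in the mitotic blocks, and Kif20b is blue in all 4 cisplatin libraries.

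By the same measure per kilobase, the order of levels among the 67 genes was led by Cenpb (91.1 ± 27.7), E2f4 (35.4 ± 5.31) and Cdk4 (32.7 ± 3.77) in the controls, with E2f4 and Cdk4 within each other's spread, and the same 3 genes led after cisplatin. Mcm7 moved from rank 8 (8.49 ± 0.50) to rank 4 (28.8 ± 11.3), where Cdk4 above it and Gins4 below it lay within their joint spread. Most of the mitotic genes that rose stayed low, with Cdk1 at 0.41 ± 0.25 in the controls and 1.5 ± 0.85 after cisplatin where Cdk4 was at 32.7 and 36.2.

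Among the 35 genes placed in other roles, 5 rose and 3 fell of 33 tested, which is 15.2% and 9.09% and near or below the share of all genes. Those that rose were the cargo and cilium motors Kif17 (2.49 ± 0.41), Kif1a (2.24 ± 0.33), Kif7 (1.11 ± 0.28, 19.1% of exon bases shared) and Kif5c (1.02 ± 0.38) and Cdk5r1, the activator of Cdk5 (2.38 ± 0.41). Kif5c kept its call in 10 of 22 alternative fits and was not called by DESeq2. Those that fell were Kif21a, a kinesin that restrains microtubule growth, from 206, 203, 252 and 145 CPM to 83.3, 86.2, 37.3 and 28.1 CPM (-1.78 ± 0.37), Kif27 (-1.55 ± 0.34) and the centrosome protein Cdk5rap2 (-1.19 ± 0.24). With the total count as the scale Kif27 (-0.997) and Cdk5rap2 (-0.61) were not called. The adjusted p of these 8 genes lay at or under 0.0488, that of Kif5c, which was the weakest. The most abundant uncalled members were Cdc42, a small GTPase (0.27 ± 0.20), Kif1c (-0.13 ± 0.22) and Cdk16 (-0.16 ± 0.16), and the last 2 turned positive with the total count as the scale.

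Cell cycle genes that the name pattern does not catch were followed in 5 lists, whose counts stand beside 19.2% of all genes called up and 15.7% called down. Brakes on the cycle were led by Cdkn1a, the p53-induced inhibitor p21, which was at 17.3, 11.6, 11 and 14.8 CPM in the controls and at 1249, 1573, 2298 and 2535 CPM after cisplatin. That is a log2 change of 7.13 ± 0.34 (adjusted p = 1.12e-06), in every treated kidney. Of the 9 inhibitors and pocket proteins with values, out of 18 listed, Cdkn1c also rose (1.05 ± 0.21, 30.7% of exon bases shared with Gm44732, and 0.83 with no call in control 1, 2 and 3 against cisplatin 1 and 3), Rbl2, the pocket protein p130 of resting cells, fell (-1.48 ± 0.18), and 6 were not called. Rbl2 was at 110 to 115 CPM in the controls and 28.9 to 49.9 CPM after cisplatin, and with the total count as the scale it was not called.

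Of 10 p53 targets that slow the cycle with values, out of 19 listed, 7 rose (70.0%) and 0 fell. Btg2 was at 58.3, 83.1, 58.9 and 30.5 CPM against 594, 820, 661 and 683 CPM (3.58 ± 0.30, adjusted p = 1.75e-05). Trp53inp1 (3.25 ± 0.30), Btg1 (1.92 ± 0.15), Gadd45a (1.72 ± 0.22, 19.1% of exon bases shared) and Ccng1 (1.70 ± 0.17) followed, and Sesn2 and Plk3 were the remaining ones. Of 7 checkpoint genes with values, out of 15 listed, 3 rose (42.9%), namely Pkmyt1, the kinase that inhibits Cdk1 (2.21 ± 0.32), Clspn, which hands the ATR signal to Chek1 (2.04 ± 0.44), and Chek1 itself (1.09 ± 0.30). Chek1 was not called in control 1, 2 and 3 against cisplatin 1 and 3 (0.75) or in the fit that pairs libraries by number (0.67).

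Of 15 further genes of DNA synthesis with values, out of 37 listed, 4 rose (26.7%, where 19.2% of all genes did) and 0 fell. Cdt1, the licensing factor that works with Cdc6, was at 11, 7.1, 9.63 and 12.0 CPM against 30.3, 22.9, 85.8 and 88.5 CPM (2.52 ± 0.45, adjusted p = 0.00138), with the same high values in cisplatin 4 and 6 as the Mcm genes. Uhrf1, which keeps methylation on new DNA, was even across treated kidneys at 25.6, 29.4, 26.2 and 32.0 CPM against 3.11 to 8.24 CPM (2.30 ± 0.30, adjusted p = 0.000216). Rpa2 (1.39 ± 0.30) and Pold1 (1.13 ± 0.17) also rose, and Rpa2 was not called in control 1, 2 and 3 against cisplatin 1 and 3 (0.85).

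Of 68 genes of mitosis listed outside the name pattern, 44 had values and 43 were tested. Of these 19 rose (44.2%, where 19.2% of all genes did) and 2 fell, and cisplatin 6 was the highest of the 8 libraries in 33, where it was so in 16.4% of all genes. Ccnf, cyclin F, a subunit of a ubiquitin ligase, was at 1.86, 1.44, 1.37 and 0.865 CPM against 9.51, 9.73, 11.3 and 15.9 CPM (3.06 ± 0.32, adjusted p = 5.95e-05). Iqgap3 (2.47 ± 0.62), the cohesion factor Cdca5 (2.28 ± 0.49) and the kinetochore protein Ska3 (2.22 ± 0.35) came next, and all 3 rose without overlap. The 2 that fell were the checkpoint protein Mad1l1 (-1.29 ± 0.28) and the histone H3 kinase Haspin (-1.26 ± 0.33), and neither was called with the total count as the scale. In control 1, 2 and 3 against cisplatin 1 and 3 alone, 21 genes of the 5 lists rose in place of 35, where 17.6% of all genes rose. Those no longer called were Cdkn1c, Chek1, Rpa2, Iqgap3, Ube2c, Kntc1, Melk, Anln, Zwilch, Birc5, Oip5, Cdca8, Prc1 and Racgap1, and Mad1l1 was not called down. All of those that no longer rose, except Cdkn1c, Chek1 and Rpa2, were among the 19 genes of mitosis, so the share of 44.2% did not hold in that fit.

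Markers of the cell types a kidney holds moved between the same libraries. All 10 proximal tubule markers fell, from a summed 26903, 22634, 27247 and 32501 CPM to 921, 605, 1686 and 2199 CPM. Slc34a1 was the most abundant of them in every control, and Aqp1, Lrp2 or Slc34a1 after cisplatin. In bulk tissue fewer cells of a type and less RNA per cell cannot be told apart. Of 5 thick ascending limb and distal markers 3 fell and Aqp2, the water channel of the collecting duct, rose, with a sum of 7646 to 11834 CPM in the controls and of 5215, 3269, 1926 and 857 CPM after cisplatin. With the total count as the scale Umod (-1.22) and Calb1 (-0.93) were not called down. Umod was also not called in control 1, 2 and 3 against cisplatin 1 and 3 alone (-0.96). Umod was the most abundant in all libraries but cisplatin 4 and 6, where Aqp2 was. The sums of 2 podocyte genes, mostly Podxl, were 342 to 691 and 375 to 587 CPM.

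Cells from outside the tubule were mixed. Of 5 fibroblast and pericyte markers 3 rose and 0 fell, from 259, 239, 72.3 and 120 CPM to 1586, 1380, 343 and 1026 CPM, with cisplatin 4 the lowest treated kidney. The 3 were the collagen genes Col1a2, Col3a1 and Col1a1, at mean levels of 380, 363 and 333 CPM after cisplatin. Of 5 tested neutrophil markers 4 rose, with sums of 4.07 to 5.82 CPM and then 13.4, 17.8, 20.2 and 25.0 CPM, and Mpo was at or below 3 counts everywhere. Csf3r, which was not called, was the most abundant in all libraries but cisplatin 4 and 6, where S100a9 was. Of 6 macrophage and monocyte markers Cd14 and Itgam rose and Ccr2 fell, with sums of 67.6 to 136 and 129 to 183 CPM. Lyz2 (mean 40.2 CPM) and C1qb (31.7 CPM) were the most abundant in the controls and were not called, while Cd14 went from 7.76 to 81.2 CPM. Of 6 tested lymphocyte markers 1 rose and 3 fell, with sums of 32.6 to 52.5 and 14.4 to 28.4 CPM, the most abundant being Ptprc, or Cd79a in cisplatin 4 and 6. Ptprc, which fell, is carried by all leukocytes, and beside it Cd8a and Nkg7 fell and the B cell gene Cd79a rose. With the total count as the scale Ptprc (-0.84) and Ccr2 (-1.26) were not called, and Csf3r (1.49) was called up. Csf3r was also called up in control 1, 2 and 3 against cisplatin 1 and 3 alone (1.06). With the total count Cd14, Itgam, Cd8a, Nkg7, Cd79a and the 4 neutrophil genes kept their calls. None of 5 endothelial markers was called (sums of 499 to 738 and 271 to 639 CPM, with Plvap the most abundant), where edgeR at an unadjusted p under 0.05 called 1. That gene, Kdr, missed only the fold threshold (-0.94, adjusted p = 0.0152 in the quasi-likelihood test). Kdr was called down without cisplatin 1 and 3 (-1.01), in control 1, 2 and 3 against cisplatin 1 and 3 alone (-1.07) and in the fit that pairs libraries by number (-1.07). Of 4 erythroid markers 3 fell (sums of 4.95 to 197 and 0.825 to 12.5 CPM, with Hba-a1 the most abundant in all libraries but cisplatin 1 and 3, where Alas2 was). Of those that fell, Hba-a2 and Hbb-bt overlapped between the groups. Without cisplatin 1 and 3 they were not called (-4.20 and -3.75), while Alas2 was called down (-4.56). All of these counts stand beside 19.2% of all genes called up and 15.7% called down. The part of any of these cell types in the levels of the cell cycle genes was not tested.

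Some calls rest on few reads or on part of the libraries. When every library had to hold 10 counts or more, 13 of the 27 genes that rose could be tested and all 13 were called, while 8 were kept by a test for changes larger than 1 on the log2 scale. DESeq2 kept all of the 27 but Kif5c. Leaving out 1 library at a time kept 23 to 26 of the 27, and the genes lost were Aurka, Cenpu, Kif20a, Kif5c and Mcm3. Without cisplatin 6, Mcm3, Aurka, Cenpu and Kif20a were not called, and without control 5, Aurka, Cenpu, Kif20a and Kif5c. In control 1, 2 and 3 against cisplatin 1 and 3 alone, 17 of the 27 were called, and the 10 that were not, all with positive changes, were Mcm5, Orc6, Mcm3, Aurkb, Cdk1, Aurka, Cenpw, Ndc80, Cenpu and Kif20a.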

How the data were processed

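Bulk RNA sequencing of 8 mouse kidneys was analysed. Per the labels and the study's methods, reads were cleaned with fastp and aligned to GRCm38 with HISAT2, and the authors deposited raw counts per gene. The counting tool and strand setting are not given in the sources used here, and the methods and the labels name different library kits. Rows with 10 counts (17835 of 53715) were left out, and their 2 unnamed columns of values were not used. Columns were matched to samples by library name.

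The fit was made with edgeR 4.0.16 in R 4.3.3, using its default expression filter, TMM normalization and the quasi-likelihood test over all genes, with 4 libraries per group. A call needed a log2 fold change of size 1 or more and a Benjamini-Hochberg adjusted p below 0.05. The SE is the absolute log2 fold change divided by the square root of F. The procedure was tested on simulated data. Exon overlaps came from GENCODE M21 and promoter windows from RefSeq. A pseudocount of 1 was used for the library medians.

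Genes named are the called members whose mean was 1 CPM or more and whose groups did not overlap (up to 5 per role, 4 per other list), a fixed set of well-known genes, and the most abundant uncalled genes of the other roles. Others are named where they complete a role and were chosen after their values were seen. The members and lists were chosen with earlier results of these data known. Alternatives were DESeq2 1.42.0, other scalings and filters, a test for changes above 1 (log2), the replicate block, each library left out, and fits that divide or drop the libraries that stood apart.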

Additional observations from a re-analysis of the deposited data

Results flagged for a closer look

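In 6 of 122 groups of 4 libraries, 1 library lay apart from the other 3 by Dixon's test, where chance gives about 1 in 20. Ccnb1 was at 10.6 CPM in cisplatin 6 and at 1.64 to 3.15 CPM in the other treated kidneys. Kif17 was at 7.04 CPM in cisplatin 3 and at 3.59 to 3.89 CPM in the others. In control 5, Kif1c was at 606 CPM against 331 to 351 CPM in the other controls, Cdk4 at 125 CPM against 98.4 to 102 CPM, and Cdk2 at 25.6 CPM against 36.2 to 37.8 CPM. Mcm2 was at 20.3 CPM in control 2 and at 27.4 to 28.1 CPM in the other controls. Of these 6 values, 3 belong to control 5, which also stood apart on the second principal component.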

How the results depend on the processing

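All 27 members that rose kept a positive log2 change under every alternative in which they were tested, and the 4 that fell kept a negative one. Over 61 named genes, 1220 values kept direction and side of the threshold, 63 lost the call, 18 gained one and 23 changed sign. Pairs of counts are up and down, and single counts are up. With the total count as the scale, all genes gave 3174 and 803, members 52 and 2, G1 5, mitotic 24 and genes outside the name pattern 55 and 0. With at least 10 counts in every library, fewer genes were tested and all genes gave 1101 and 1064, members 13 and 4, G1 0 and 0, replication 5 and 0 and mitotic 5 and 1. Tested against a log2 fold change of 1, which is stricter by construction, 885 and 803 of all genes were called, 8 and 2 members, 0 G1, 3 replication, 2 mitotic, and 19 and 1 outside genes. By adjusted p alone, all genes gave 2416 and 2069, members 36 and 9, G1 4 and 0, replication 10 and 1 and outside genes 41 and 5. In control 1, 2 and 3 against cisplatin 1 and 3, members gave 17 and 4, replication 5 and 0, mitotic 5 and 1 and outside genes 21 and 2. Without cisplatin 1 and 3, members gave 32 and 9, G1 2 and 1, mitotic 15 and 2 and outside genes 43 and 5. The cause of the changes with library choice was not tested.

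Numbers 1 and 3 are used for a control and a treated library each, and deviations from the group means correlated at 0.25 and 0.28 across genes. Control 2 and cisplatin 1 gave 0.36, and control 5 and cisplatin 4 gave 0.51. These values do not single out the libraries of the same number, but they cannot exclude a pairing. The fit with the replicate block, which rests on those 4 libraries, gave 17 members up (15 of the 27), 1 G1, 5 replication, 4 mitotic and 21 outside genes. Its share of all genes called up was 18.7%, against 17.5% of members, 27.8% of replication and 11.1% of mitotic genes, so the mitotic share lay below that of all genes. The 12 members no longer called were E2f8, Mcm5, Orc6, Mcm3, Aurkb, Cdk1, Aurka, Cenpw, Cenps, Ndc80, Cenpu and Kif20a. In it Kif1c (0.049), E2f3 (0.052), Cdc45 (-0.50), Ccnb1 (-0.088), Ccnb2 (-0.14), Plk1 (-0.17) and Cenpa (-0.055) changed sign. So did Kif1c (0.44), Cdk16 (0.41), Ccnd2 (0.12) and E2f3 (0.52) with the total count, E2f3 (0.087) and Cdc45 (-0.032) with the library division as a covariate, and Kif1c (0.0082), E2f3 (0.12), Cdc45 (-0.33) and Cenpa (-0.12) in control 1, 2 and 3 against cisplatin 1 and 3. Leaving out 1 library at a time, the log2 change of Kif1c ran from -0.22 to 0.12, of E2f3 from -0.36 to 0.10 and of Cdc45 from -0.15 to 0.29. It gave 1559 to 1848 genes up and 1351 to 1533 down, 23 to 30 members up and 4 to 4 down, 2 to 2 G1, 7 to 9 replication and 9 to 14 mitotic genes up, and 29 to 39 outside genes up and 3 to 4 down. Depth limits the low genes, since many mitotic members had fewer than 10 counts in a control.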

Other observations

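Cyclins outside the name pattern were looked up after the data had been seen. Of 13 with values, out of 18 listed, 3 rose (23.1%) and 1 fell (7.69%) in edgeR's quasi-likelihood test, where 19.2% of all genes rose and 15.7% fell. Without overlap between the groups, 6 were higher and 3 lower, where 23.7% and 22.5% of all genes were. Besides Ccnf and Ccng1, Ccno rose, a cyclin of multiciliated cells, at 0.797, 0.798, 1.44 and 1.97 CPM in the controls and 2.09, 1.70, 11.1 and 11.8 CPM in cisplatin 1, 3, 4 and 6 (log2 change 2.39 ± 0.70, adjusted p = 0.0171). Its high values were those of cisplatin 4 and 6, cisplatin 3 lay within the controls, and it was not called in control 1, 2 and 3 against cisplatin 1 and 3 (0.84). Ccnh, the cyclin of the Cdk-activating kinase, fell from 49.6, 57.6, 51 and 40.8 CPM to 26.2, 23.8, 22.5 and 20.3 CPM (-1.10 ± 0.16, adjusted p = 0.000435, and -0.53 with no call with the total count as the scale), while its partner Cdk7 was at 23 to 25.2 and 21.1 to 30.7 CPM (0.12 ± 0.17, adjusted p = 0.573). The cyclins Ccnl1 and Ccnl2, which act in transcription and splicing, were higher in all 4 treated kidneys by less than the fold threshold (0.97 ± 0.14 and 0.89 ± 0.15).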
